A study of Homo sapiens with 4 samples.

Results

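The 7 FOS and JUN family genes of the AP-1 transcription factor, FOS, FOSB, FOSL1, FOSL2, JUN, JUNB and JUND, were examined among 32955 genes in 4 RNA-seq libraries. All were labelled as the established breast cancer line MDA-MB-231, grown in DMEM with fetal bovine serum. Cells for 2 libraries had received mimic NC, the negative control oligonucleotide, and those for the other 2 had received miR-217 mimic, a synthetic RNA acting as miR-217. Within each group the libraries are numbered 1 and 2, and the labels do not say what the number marks or whether cultures were separate. The p-values therefore measure only the spread between these libraries. The 7 genes were chosen by name, with the differences among these libraries already known, both by replicate number and by mimic. Differences by number are thus described without a test, and the test values for the mimic lend no support to the choice.

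AP-1 is a dimer of leucine zipper proteins. JUN proteins pair with each other or with a FOS protein, whereas FOS proteins need a JUN partner. FOS, FOSB, JUN and JUNB are classic immediate-early genes, whose transcripts rise within minutes of a growth or stress signal and decay quickly, while FOSL1 and FOSL2 follow later and JUND is expressed more steadily. AP-1 acts downstream of RAS and the MAP kinases, and FOSL1 is known for its high level in basal-like and mesenchymal breast cancer cells.

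Values are RPKM, reads scaled by exon length and by the total counted on genes. The length is that of all annotated exons of a gene merged, such as 3238 bases for FOS and 7157 bases for FOSL2. A transcript can be shorter than this, to a degree that was not measured. Levels of different genes can thus be compared only roughly, whereas the length cancels in RPKM ratios of the same gene between libraries. Reads on genes summed to 57933183 and 53356283 in the libraries numbered 1, and to 47374957 and 32635814 in those numbered 2 (mimic NC first). The libraries numbered 2 were thus shallower in both groups, and their mitochondrial share was higher, at 3.97% and 4.78% of reads compared with 3.56% and 3.58%. The first principal component of the 13871 genes tested (mean RPKM at least 1) held 71.3% of the variance and separated number 1 from number 2. Whether depth or the mitochondrial share plays a part in the differences by number was not tested. VIM, a mesenchymal filament gene, was at 27.9 to 36.9 RPKM. ESR1, the gene of the estrogen receptor, which this line is known not to express, stayed at or below 0.0756 RPKM. CDH1, the epithelial cadherin gene, stayed at or below 0.433 RPKM. EPCAM, an epithelial surface gene, was at 3.90 to 7.41 RPKM. MDA-MB-231 is known to have lost CDKN2A, a cell cycle inhibitor gene, yet CDKN2A had 10.5 to 13.2 RPKM in the 4 libraries. The values of this gene go against the labelled line, but the origin of its reads was not examined.

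FOS, the founding member of its family, is on the plus strand of chromosome 14 (GRCh38, 75278774 to 75282230). Its level was 42.4 RPKM in mimic NC 1 and 37.1 RPKM in miR-217 mimic 1, but 0.548 RPKM in mimic NC 2 and 0.643 RPKM in miR-217 mimic 2. Both libraries numbered 1 were high and both numbered 2 were low, whichever oligonucleotide the cells had received. The ratio of number 1 to number 2 was 77.4 within mimic NC and 57.6 within miR-217 mimic. The low values rest on 84 and 68 reads, and their 95% Poisson intervals, which cover counting error only, ran from 0.437 to 0.678 RPKM and from 0.50 to 0.816 RPKM. In bulk RNA, fewer cells with FOS transcripts and less FOS RNA per cell cannot be told apart. On the log2(RPKM + 1) scale, where changes of low genes come out too small, the difference of number 2 minus number 1 was -4.67, the lowest of the 13871 genes.

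FOSB, which shares the immediate-early behaviour of FOS, lies on the plus strand of chromosome 19 (45467995 to 45475179). It stood at 8.15 RPKM in mimic NC 1 and 6.80 RPKM in miR-217 mimic 1, and at 0.167 RPKM in mimic NC 2 and 0.221 RPKM in miR-217 mimic 2. The pattern was that of FOS at a lower level, with ratios of number 1 to number 2 of 48.7 and 30.8 in the 2 groups. Only 44 and 40 reads were counted in the libraries numbered 2, and FOSB reached the minimum mean of 1 RPKM only through number 1. The table gives 1 value per gene, and so the full-length and the truncated FOSB transcripts cannot be told apart.

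JUN, the main partner of FOS, is an intronless gene on the minus strand of chromosome 1 (58780788 to 58784327). It had 69.4 RPKM in mimic NC 1 and 60.0 RPKM in miR-217 mimic 1, compared with 14.3 RPKM in mimic NC 2 and 16.6 RPKM in miR-217 mimic 2. Unlike FOS, it thus remained well expressed in the libraries numbered 2, above 76.7% and 79.8% of the genes tested there. FOS, at 0.548 and 0.643 RPKM there, passed the minimum mean of 1 RPKM only through number 1. The place of FOS among the genes tested in number 2 follows from that minimum and is not given. For JUN the ratio of number 1 to number 2 was 4.86 within mimic NC and 3.61 within miR-217 mimic.

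JUNB, which can restrain JUN and is also a partner of FOS proteins, lies on the plus strand of chromosome 19 (12791496 to 12793315). Its level was 21.1 and 16.9 RPKM in mimic NC 1 and miR-217 mimic 1, and 8.40 and 6.65 RPKM in mimic NC 2 and miR-217 mimic 2. JUND, the steadily expressed JUN protein, is on the minus strand of the same chromosome (18279760 to 18281622) and had 18.8 and 17.0 RPKM in the libraries numbered 1 and 11.6 and 10.7 RPKM in those numbered 2. For both genes the libraries of number 1 and number 2 did not overlap, and the ratios were 2.52 and 2.53 for JUNB and 1.63 and 1.59 for JUND. Of the bases counted for JUNB, 14.2% are shared with HOOK2 on the other strand, and the strand setting of the counting is not given in the sources used here.

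FOSL1, which encodes FRA-1, went the other way. It lies on the minus strand of chromosome 11 (65892049 to 65900573) and had 9.50 RPKM in mimic NC 1 and 9.51 RPKM in miR-217 mimic 1, but 14.3 RPKM in mimic NC 2 and 20.6 RPKM in miR-217 mimic 2. Both libraries numbered 2 were higher than both numbered 1, by a ratio of 1.5 within mimic NC and 2.16 within miR-217 mimic. FOSL2, which encodes FRA-2, is on the plus strand of chromosome 2 (28392448 to 28417312). It was at 11.5 and 11.4 RPKM in mimic NC 1 and 2, and at 9.99 and 10.1 RPKM in miR-217 mimic 1 and 2. It was the one gene of the 7 whose libraries overlapped between the numbers, with a difference of 0.0063 on the log2(RPKM + 1) scale.

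**Figure D1:**
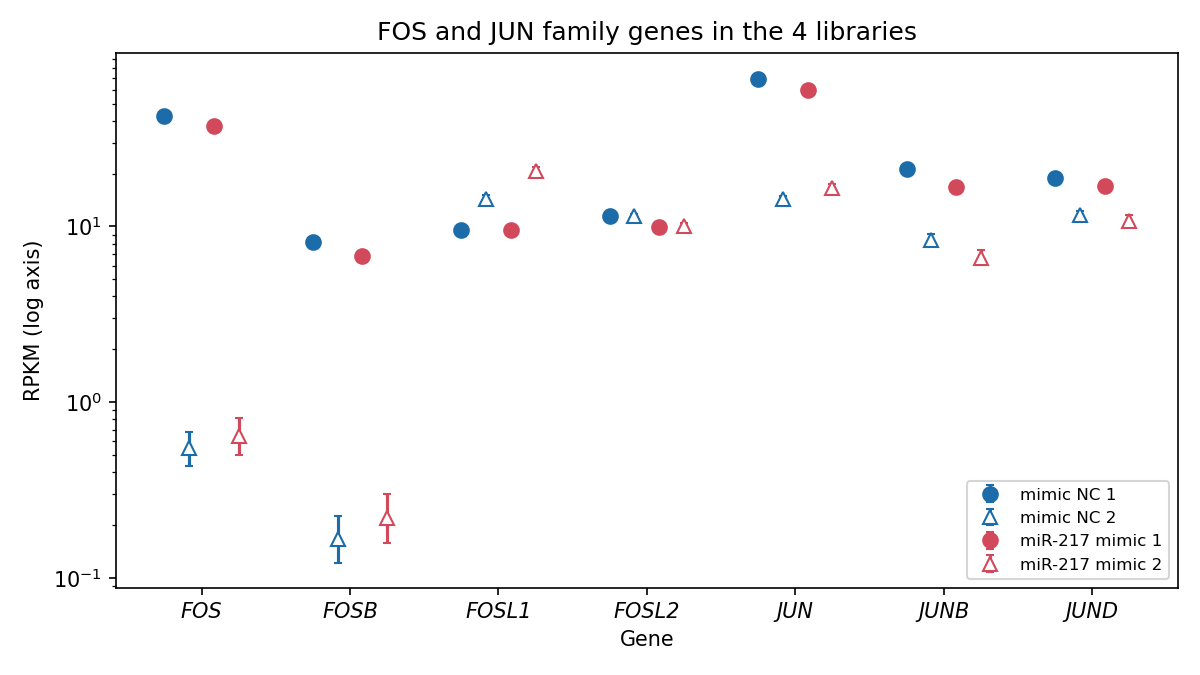
RPKM of each gene (log axis) in the 4 libraries, filled circles for number 1 and open triangles for number 2, blue for mimic NC and red for miR-217 mimic, with 95% Poisson intervals of the reads as bars. FOS is at 42.4 and 37.1 RPKM in number 1 and at 0.548 and 0.643 RPKM in number 2, FOSL2 stays between 9.99 and 11.5 RPKM, and FOSL1 is highest in the libraries numbered 2.

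Both libraries numbered 2 lay below both numbered 1 in 5 of the 7 genes (FOS, FOSB, JUN, JUNB and JUND), compared with 35.5% of all genes tested, and above them in 1 gene (FOSL1), compared with 26.9%. Number 2 was lower by at least 1 on the log2(RPKM + 1) scale within both groups for 4 genes, FOS, FOSB, JUN and JUNB, compared with 0.339% of genes tested. It was higher by at least 0.5 within both groups for FOSL1 alone, compared with 2.25% of genes tested. FOS and FOSB, which are among these genes, reached the minimum mean of 1 RPKM only through number 1. The counts describe the choice of the genes and are no test of it. The median difference of the 7 genes was -1.23, and it was -1.24 within mimic NC and -1.22 within miR-217 mimic, whereas all genes tested had a median of -0.035.

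The order of the levels changed with the number. The order within a library, and the sums and shares below, depend on the merged exon length used for each gene. In mimic NC 1 it ran from JUN and FOS through JUNB, JUND, FOSL2 and FOSL1 to FOSB, and in miR-217 mimic 1 JUNB and JUND changed places, at 16.9 and 17.0 RPKM with overlapping counting intervals. FOSL2 and FOSL1 kept their order there, at 9.99 and 9.51 RPKM, but their intervals also overlapped. In mimic NC 2 JUN and FOSL1 were level at 14.3 RPKM, JUND and FOSL2 followed at 11.6 and 11.4 RPKM with overlapping intervals, and FOS and FOSB came last. In miR-217 mimic 2 FOSL1 stood first at 20.6 RPKM, above JUN at 16.6 RPKM. The summed RPKM of the 7 genes was 180.8 and 157.3 in the libraries numbered 1 and 60.7 and 65.5 in those numbered 2. FOS, FOSB and JUN together made up 66.3% and 66.1% of this sum in number 1 and 24.7% and 26.7% in number 2, while FOSL1 and FOSL2 together went from 11.6% and 12.4% to 42.4% and 46.8%. The FOS family as a whole held 39.5% and 40.3% in number 1, and 43.6% and 48.1% in number 2.

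**Figure D2:**
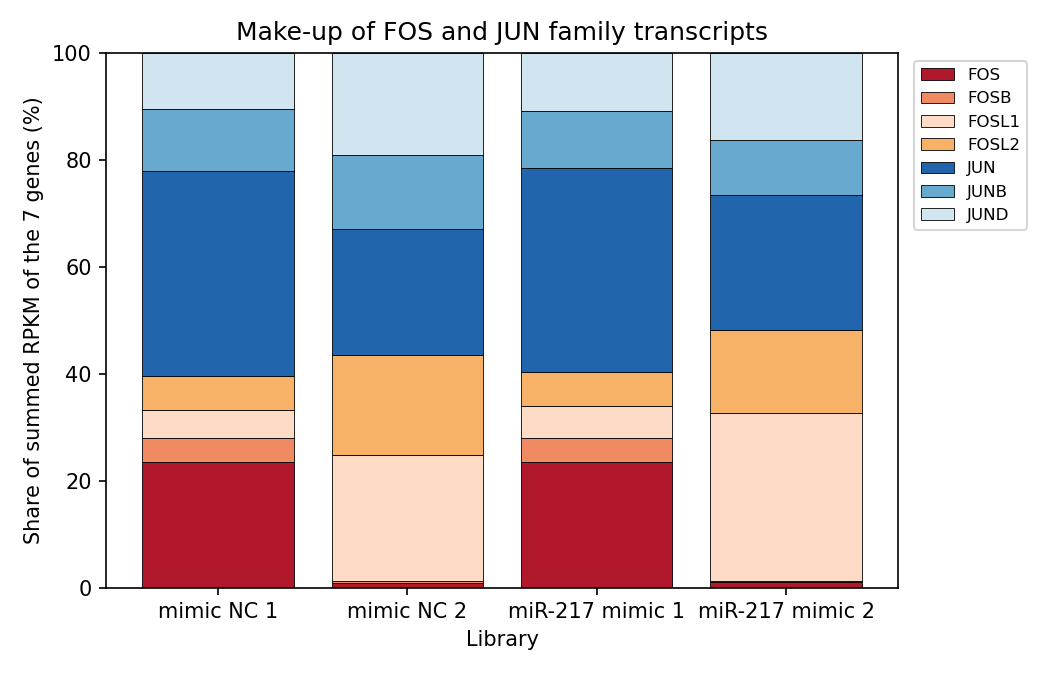
Share of each gene in the summed RPKM of the 7 genes (%, stacked bars, 1 bar per library). The shares depend on the merged exon length used for each gene. FOS takes 23.4% and 23.6% in the libraries numbered 1 but 0.903% and 0.982% in those numbered 2, where FOSL1 takes 23.5% and 31.4% instead of 5.26% and 6.05%.

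Promoters are shown because several of these genes share letters there that CREB, ATF or AP-1 proteins are known to bind. RefSeq promoter sequences (GRCh38.p14, 250 bases before to 50 after the RefSeq start) were found for 6 of the 7 genes, all but FOSL1. The letters TGACGT, the core of a cAMP response element, were searched on both strands and occurred in 4 of the 6 (FOS, FOSB, FOSL2 and JUND), compared with 7.97% of 34796 distinct promoter sequences. The full palindrome TGACGTCA, which contains that core, was in JUND (1.84% of promoters), TGACATCA was in JUN (2.6%), and TGACTCA, the consensus AP-1 site, was in FOSL2 (4.96%). Each window of 30 bases is given 5′ to 3′ on the strand of the gene, with the match in capitals.
FOS, chr14:75278752-75278781, match starting 64 bases before the start: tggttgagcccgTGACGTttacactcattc
FOSB, chr19:45467924-45467953, match starting 60 bases before the start: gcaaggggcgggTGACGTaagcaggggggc
FOSL2, chr2:28392780-28392809, match starting 66 bases before the start: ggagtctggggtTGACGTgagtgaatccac
JUN, chr1:58784096-58784125, match starting 67 bases before the start: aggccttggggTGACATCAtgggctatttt
JUND, chr19:18281804-18281833, match starting 200 bases before the start: ggccgcccccaTGACGTCAacccacaaggc

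Positions of the match and differences by number are given here side by side, and a link between them was not tested. FOS and FOSB, with TGACGT 64 and 60 bases before the RefSeq start, had the lowest differences of the 7 genes, -4.67 and -2.82. FOSL2, with the same letters 66 bases before its RefSeq start, had 0.0063. The spans counted for FOSL2 and JUN begin further upstream, and their windows lie inside these spans, as does the end of the FOS window. JUND also carries TGACGT on the reverse strand, 87 bases before the start, and JUNB has none of the 4 motifs in its window. The CArG box, to which serum response factor binds, was in 0 of the 6 windows (1.30% of all promoters), but the window ends 250 bases before the start. A match is a description of the letters only.

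The transcripts of immediate-early genes are also known for AU-rich elements, repeats of ATTTA in the 3'UTR that decay factors recognise. In the longest 3'UTR annotated in GENCODE 29 (GRCh38), FOS had 5 copies of ATTTA in 806 bases, or 6.20 per kilobase, more than 95.6% of 9909 tested genes with a 3'UTR. JUNB had 4.0 per kilobase, JUN 2.33, FOSL2 1.85, JUND 1.47, FOSB 1.38 and FOSL1 1.19, around a median of 1.66 over all these genes. The longer element TTATTTATT was present in FOS and FOSL2, compared with 8.96% of genes. The density depends on the length of the 3'UTR: FOSB had 3 copies in 2167 bases, and JUN had 3 in 1287 bases. Whether these elements play a part in the differences by number was not tested.

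For the comparison that the study set out to make, miR-217 mimic against mimic NC, the differences of 6 of the 7 genes were smaller than those between the numbers, while that of FOSL2 was larger. The libraries were compared with limma on log2(RPKM + 1) over 13871 genes, without a replicate term. Of the 7 genes, none (0) reached an unadjusted p under 0.05, against 1.19% of all genes tested, and 0 had a Benjamini-Hochberg adjusted p under 0.05, compared with 0% of all genes tested. Each adjusted p was 1.00 from limma. At an unadjusted p under 0.05, 165 genes were counted in this fit and 82 by limma voom on reads recovered from RPKM, where 0 of the 7 genes were also counted.

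JUNB had the largest difference, -0.30 (standard error 0.57). It was lower with miR-217 mimic by a similar amount in both numbers, -0.31 within number 1 and -0.30 within number 2, or -20.2% and -20.8% in RPKM. Its mean was 14.8 ± 9.0 RPKM (SD, n = 2) with mimic NC and 11.8 ± 7.22 RPKM (SD, n = 2) with miR-217 mimic, so that the spread within a group, which is that between the numbers, exceeded the difference. FOSL2 was at 11.4 ± 0.0236 RPKM (SD, n = 2) with mimic NC and 10.1 ± 0.0894 RPKM (SD, n = 2) with miR-217 mimic. Its difference was -0.17 (standard error 0.11), and it was the one gene of the 7 with both miR-217 mimic libraries below both mimic NC libraries, as in 13.5% of all genes tested. FOSL2, JUNB and JUND were lower within both numbers, 3 of the 7 genes compared with 34.1% of genes tested.

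FOSL1 differed by 0.25 (standard error 0.39), from 0.0015 within number 1 and 0.50 within number 2, that is by 0.113% and 44.0% in RPKM. Its higher level with the mimic thus came from miR-217 mimic 2 alone, the shallowest library. FOS, FOSB and JUN were lower within number 1, by -0.19, -0.23 and -0.21, and higher within number 2, by 0.087, 0.065 and 0.20. Their differences over all libraries were -0.051, -0.083 and -0.00055, with standard errors of 2.14, 1.30 and 0.93. Those of FOS, FOSB and JUN turned in sign with a pseudocount of 0.1 and in limma voom, and that of JUN also with median centring. The median of the 7 genes was -0.083, compared with -0.017 for all genes tested, and it depended on each library: it was -0.92 without mimic NC replicate 2, -0.90 without miR-217 mimic replicate 1, and 0.31 without mimic NC replicate 1 or miR-217 mimic replicate 2. With 3 libraries the numbers are unbalanced over the groups.

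**Figure D3:**
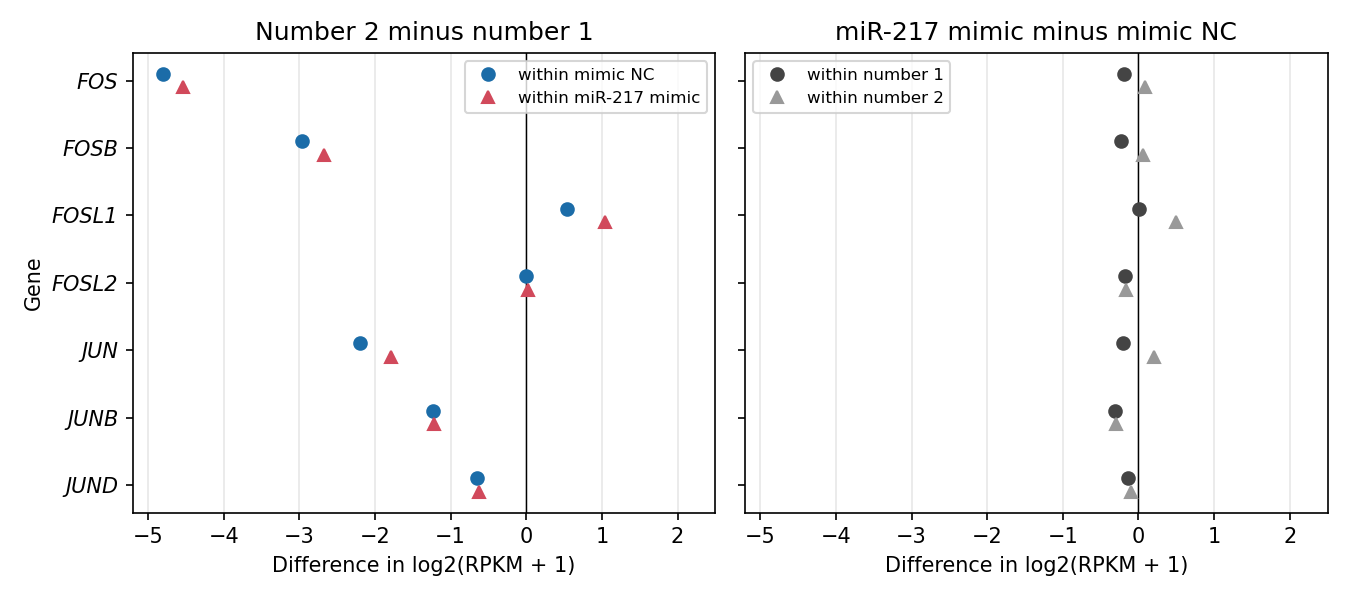
Differences in log2(RPKM + 1) for each gene, number 2 minus number 1 within each group (left) and miR-217 mimic minus mimic NC within each number (right), on the same axis. The points on the left run from -4.81 for FOS to 1.04 for FOSL1, and those on the right from -0.31 for JUNB to 0.50 for FOSL1.

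A direct site for miR-217 was looked for in the same 3'UTRs. The mature strand, hsa-miR-217-5p in RefSeq (GRCh38.p14, chr2:55983020-55983042, minus strand), is shown with its seed, bases 2 to 8, in capitals.
hsa-miR-217-5p: uACUGCAUcaggaacugauugga
The match to the seed, ATGCAGT, was in the 3'UTR of 0 of the 7 genes, compared with 14.5% of 9909 genes tested, and TGCAGTA, the match to bases 2 to 7 followed by A, was also in 0 of them. JUN alone held the 6 bases TGCAGT, at bases 1017 to 1022 after the stop codon, as did 47.6% of all genes.
JUN, 3'UTR, match to bases 2 to 7 in capitals: aggaaggggggtTGCAGTggagagggacag
The level of JUN with miR-217 mimic was 60.0 against 69.4 RPKM within number 1 and 16.6 against 14.3 RPKM within number 2, lower in one number and higher in the other.

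The genes nearest to FOS in pattern were taken as the 5 with the smallest Euclidean distance of their centred log2(RPKM + 1) values over the 4 libraries, among 13871 genes. EGR1, an immediate-early zinc finger factor, was nearest, at a distance of 0.60, with 20.3 and 20.6 RPKM in number 1 and 0.269 and 0.234 RPKM in number 2. FOSB followed at 1.85, and then RPS24P17 at 1.90, ANKRD1 at 2.14 and CTGF at 2.19. RPS24P17 is a pseudogene whose reads can be shared with copies elsewhere. EGR1, FOSB and ANKRD1 were below 1 RPKM in both libraries numbered 2 and reached the minimum mean of 1 RPKM only through number 1. For such genes the distance on the log2(RPKM + 1) scale depends largely on the level in number 1. The distance is a description of these 4 libraries only.

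The partners of AP-1 proteins are other leucine zipper proteins. Of a list of 14 leucine zipper genes 10 were tested, with a median difference of 0.22 between number 2 and number 1, and both libraries numbered 2 lay above both numbered 1 in 6 of them, compared with 26.9% of all genes tested, and below in 3, compared with 35.5%, with no test of these counts. DDIT3, a stress-induced partner, was at 7.40 and 6.87 RPKM in number 1 and 30.8 and 29.8 RPKM in number 2, a difference of 1.94. ATF4, the factor that drives DDIT3 in the integrated stress response, was at 54.4 and 57.4 RPKM in number 1 and 123 and 121 RPKM in number 2, and MAFF, a small MAF protein, differed by 0.63. With miR-217 mimic the largest differences were those of ATF2 (-0.13), MAFG (-0.11) and MAFF (0.080), and 0 of the 10 genes had an unadjusted limma p under 0.05.

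Genes that act above AP-1 were near the shares of all genes tested. Of 24 kinases and factors that act on FOS and JUN, 22 were tested, with a median of -0.023 by number, 7 above (26.9% of all genes tested) and 7 below (35.5% of all genes tested). MKL1, a coactivator of serum response factor, was at 3.47 and 3.04 RPKM in number 1 and 1.92 and 1.97 RPKM in number 2, a difference of -0.53. MAPK3, which encodes ERK1, differed by -0.37, and ELK4, an ETS factor at serum response elements, by 0.34. With the mimic MAP2K1 (-0.20), ELK1 (-0.13) and CREB1 (-0.12) had the largest differences, and 0 of the 22 genes had an unadjusted limma p under 0.05. Phosphorylation, through which these kinases act, is not measured by RNA-seq.

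Among 11 turnover factors 10 were tested, with a median of 0.038 by number, 4 above and 3 below, beside the 26.9% and 35.5% of all genes tested. ZFP36, which binds AU-rich elements and is itself an immediate-early gene, was at 2.57 and 2.15 RPKM in number 1 and 0.515 and 0.854 RPKM in number 2, a difference of -1.0. The ZFP36 values in number 2 rest on 49 and 56 reads, and the gene reached a mean of 1 RPKM only through number 1. ZFP36L1, of the same family, differed by -0.61, and ITCH, a ubiquitin ligase for JUN proteins, by 0.32. ZFP36L1 (-0.25) and ZFP36L2 (0.20) had the largest differences with the mimic, and 0 of the 10 genes had an unadjusted limma p under 0.05.

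Of 24 genes generally described as AP-1 targets 22 were in the table and 15 were tested. Among these 15, both libraries numbered 2 lay above both numbered 1 in 11, compared with 26.9% of all genes tested, and below in 3, compared with 35.5%, with a median difference of 0.35. These counts were not tested and leave out the genes at low levels. VEGFA, the angiogenic growth factor gene, was at 12.9 and 9.57 RPKM in number 1 and 24.7 and 20.7 RPKM in number 2. F3, which encodes tissue factor, differed by 0.70 and IL6, an inflammatory cytokine gene, by 0.68, the latter at 0.592 to 1.66 RPKM. IL6 reached a mean of 1 RPKM only through number 2. With the mimic CD44 (0.33), a hyaluronan receptor gene, VEGFA (-0.32) and LIF (0.22), a cytokine gene of the IL6 family, had the largest differences, and 0 of the 15 genes had an unadjusted limma p under 0.05. Of the collagenase and stromelysin genes often used as AP-1 readouts, MMP1 and MMP13 were below a mean of 1 RPKM, and MMP3 and MMP10 had no row. The median difference with miR-217 mimic was -0.039 for the leucine zipper partners, -0.024 for the kinases and factors above AP-1, 0.029 for the turnover factors and 0.055 for the targets, compared with -0.017 for all genes tested.

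**Figure D4:**
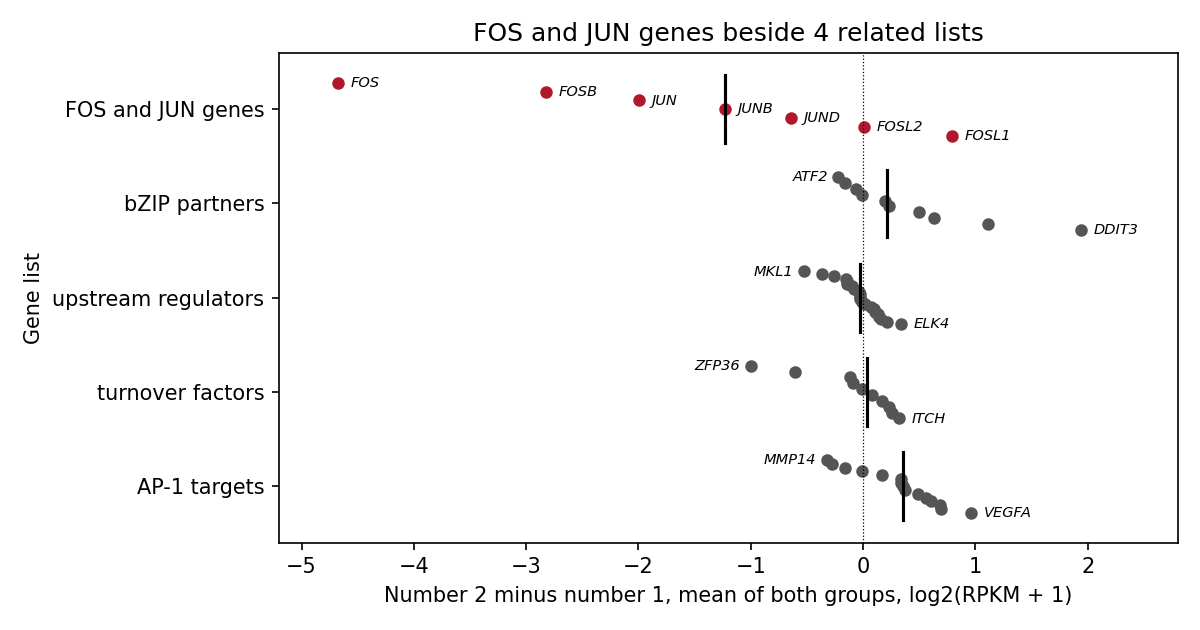
Difference of number 2 minus number 1 in log2(RPKM + 1), mean of both groups, for the FOS and JUN genes (red) and for the tested genes of 4 related lists (grey), with a black line at each median. FOS, at -4.67, lies far to the left of every gene of the other lists, whose lowest is ZFP36 at -1.0, and DDIT3 at 1.94 is the highest.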

How the data were processed

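RNA-seq values of 4 libraries were used, with groups and replicate numbers taken from the sample labels and columns matched to samples by name. The authors deposited RPKM per gene, scaled by exon length and by the reads on the listed genes, with no further scaling between libraries. The submitters' processing notes name Trimmomatic 0.36, featureCounts, Subread 1.5.1, edgeR 3.12.1 and hg38. The aligner and the annotation are not given in the sources used here. RPKM times length gave whole reads (within 0.1 read) for 100% of values, and these recovered reads were used where stated.

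Differential expression was tested with limma 3.58.1 (lmFit, and eBayes with trend, two-sided) in R 4.3.3 on log2(RPKM + 1) for genes at a mean of 1 RPKM or more, with Benjamini-Hochberg adjustment over all of them. With 2 libraries a group, the smallest exact permutation p is 0.333. The fit was also run on simulated data that held no difference between the replicate numbers. That run therefore does not cover the spread by number found in these libraries. Named are all 7 members, the 3 genes of each of 4 other lists with the largest differences in either contrast, and the 5 genes nearest to FOS. One gene that this rule names is not reported here. The members and lists were chosen with earlier results of these data known. VIM, ESR1, CDH1, EPCAM, CDKN2A, HOOK2, MMP1, MMP3, MMP10 and MMP13 were named after their values were seen. The alternatives tried were median centring, a pseudocount of 0.1, a minimum mean of 5 RPKM, no minimum, a replicate block, limma voom on recovered reads with and without it, and leaving out each library. Promoters and miR-217 came from RefSeq and 3'UTRs from GENCODE 29.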

Additional observations from a re-analysis of the deposited data

How the results depend on the processing

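The differences with miR-217 mimic rest on 2 libraries a group, and their standard errors in FOS, FOSB and JUN hold the difference between the replicate numbers. An adjusted p under 0.05 was reached by 0 genes in the reported fit and in 10 of 11 alternatives, and 1 in limma voom with the replicate block. With the replicate block on log2(RPKM + 1), 1046 genes instead of 165 had an unadjusted p under 0.05, and among the 7 genes it was 1 instead of 0, JUNB (limma, unadjusted p = 0.00956, adjusted p = 0.633). In limma voom with the replicate block it was 2, where 1261 of all 13871 genes had such a p, JUNB (adjusted p = 0.432) and FOSL2 (adjusted p = 0.538). Same-numbered libraries deviated together from their group means (Pearson r = 0.68 across 13871 genes, which are not independent), but with 2 pairs and no label for the number they share only a number. Leaving out each library gave 0 to 1 such genes (FOSL1 without miR-217 mimic replicate 1, 0.77, where 866 of all 13871 genes had an unadjusted p under 0.05) and a median from -0.92 to 0.31.

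The sign turned for FOS, FOSB and JUN with a pseudocount of 0.1 (0.0034, 0.0030 and 0.0040) and in limma voom (0.19, 0.26 and 0.0098), and for JUN with median centring (0.025). Leaving out each library gave ranges from -2.45 to 2.35 for FOS, -1.57 to 1.40 for FOSB, -1.10 to 1.10 for JUN, -0.92 to 0.31 for JUNB, -0.45 to 0.21 for JUND and -0.27 to 0.77 for FOSL1, while FOSL2 kept its sign in all 11 alternatives. These fits leave the numbers unequal between the groups.

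The median difference of number 2 minus number 1, -1.23, was -1.33 with a pseudocount of 0.1, -0.93 with a mean RPKM of at least 5 (FOSB left out), -1.20 with median centring, -1.32 in limma voom, and -1.38 to -1.07 on leaving out each library. The low reads of FOS and FOSB in number 2 limit the precision of their ratios.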
